A study of Mus musculus with 16 samples.

Results

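The loci of 4 genes tied to the naive follicular B cell state, Fcer2a, Cr2, Satb1 and Cd55, were examined for chromatin accessibility in mouse germinal center B cells. A peak of the count table was taken as belonging to a gene when that gene's protein-coding RefSeq span was the nearest to the middle of the peak and lay within 50 kb. This gave 30 of 82188 peaks: 4 for Fcer2a, 8 for Cr2 and 18 for Satb1. In the table used here no peak lay within 50 kb of Cd55 (chr1:130429798-130465009); the nearest peak was 82399 bp away and was assigned to Zp3r, so Cd55 was not analysed here. In all, 15075 genes had a peak. The 3 measured loci were located, on GRCm38.p6 (mm10) and on the minus strand, at chr8:3680280-3694174 for Fcer2a, chr1:195136811-195176880 for Cr2 and chr17:51736187-51833290 for Satb1.

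The study profiled spleen cells of C57BL/6 mice aged 8 to 10 weeks by Omni-ATAC, a form of ATAC-seq in which a transposase cuts and tags open chromatin. Of 16 libraries, 4 came from each combination of genotype, Smarca4+/+ (WT) or Smarca4+/- (HET), and cell label, CB or CC. Smarca4 encodes the motor protein BRG1, with which BAF complexes move nucleosomes, and the series set heterozygous germinal center B cells against wild-type ones. CB and CC are read here as centroblasts and centrocytes, although the labels do not spell them out and give neither a sort gate nor an immunization. Whether replicates came from separate animals is not stated, so p-values here cover just the scatter among these libraries, which may be technical.

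Fcer2a encodes CD23, the low-affinity receptor for IgE, which marks follicular B cells. Cr2 encodes the complement receptors CD21 and CD35, which lower the threshold for activation of B cells and trap antigen on follicular dendritic cells, and marginal zone B cells carry more of them than follicular B cells do. Satb1 encodes a nuclear protein that organizes chromatin loops, best known from thymocytes and T cells, and Cd55 encodes decay-accelerating factor, which protects cells from complement. Germinal center B cells lower much of the naive surface program while they divide and mutate their antibody genes, and cells that leave as memory cells take part of it up again.

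The promoters are shown because the strongest peak of every measured locus covered its first start site, and because the Satb1 peak lowered in HET CC lay over its second. Each line holds the 250 bases before a RefSeq start (GRCm38.p6), read 5′ to 3′ on the gene's strand. Capitals mark matches, on either strand, to 11 motifs searched: the TATA box TATAAA, the GC box GGGCGG, the CCAAT box, the E-boxes written CAGGTG and as CAGCTG, the RUNX letters TGTGGT, the RBPJ core TGGGAA, the AP-1 letters TGANTCA, the ETS purine box GAGGAA, and the palindromic STAT6 and EBF1 motifs.
Fcer2a start 1, chr8:3694175-3694424, minus strand: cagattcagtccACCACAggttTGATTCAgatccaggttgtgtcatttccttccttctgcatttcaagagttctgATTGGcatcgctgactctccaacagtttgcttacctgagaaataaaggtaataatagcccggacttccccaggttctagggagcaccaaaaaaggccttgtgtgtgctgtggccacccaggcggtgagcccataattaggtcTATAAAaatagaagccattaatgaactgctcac
Cr2 start 1, chr1:195176720-195176969, minus strand: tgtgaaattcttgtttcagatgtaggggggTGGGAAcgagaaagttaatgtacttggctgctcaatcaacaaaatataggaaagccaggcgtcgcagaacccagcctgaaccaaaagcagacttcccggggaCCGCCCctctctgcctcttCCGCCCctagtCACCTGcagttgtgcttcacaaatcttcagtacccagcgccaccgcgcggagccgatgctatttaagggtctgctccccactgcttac
Satb1 start 1, chr17:51833291-51833540, minus strand: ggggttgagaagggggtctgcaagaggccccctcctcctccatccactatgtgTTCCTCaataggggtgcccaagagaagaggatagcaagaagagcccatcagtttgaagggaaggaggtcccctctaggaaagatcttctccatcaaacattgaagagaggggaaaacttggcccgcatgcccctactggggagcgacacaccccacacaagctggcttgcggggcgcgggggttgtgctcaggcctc
Satb1 start 2, chr17:51832648-51832897, minus strand: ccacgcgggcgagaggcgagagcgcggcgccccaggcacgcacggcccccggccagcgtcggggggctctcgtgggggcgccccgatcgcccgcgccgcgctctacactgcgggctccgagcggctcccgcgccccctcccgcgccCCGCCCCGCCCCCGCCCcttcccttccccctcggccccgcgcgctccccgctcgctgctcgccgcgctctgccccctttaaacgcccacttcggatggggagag
Satb1 start 3, chr17:51826589-51826838, minus strand: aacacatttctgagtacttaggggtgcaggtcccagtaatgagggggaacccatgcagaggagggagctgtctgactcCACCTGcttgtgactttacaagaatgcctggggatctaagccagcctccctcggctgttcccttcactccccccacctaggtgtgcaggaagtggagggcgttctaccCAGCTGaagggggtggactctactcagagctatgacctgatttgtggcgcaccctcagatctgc

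The Fcer2a window held TATAAA from 33 to 28 bases before the start, a CCAAT box, a RUNX and an AP-1 match. Among 32851 RefSeq promoter windows of the same length, 12.4% held the TATA letters, 33.8% the CCAAT box, 14.0% the RUNX and 6.75% the AP-1 letters. The Cr2 window held 2 matches to the GC box GGGCGG (32.7% of all windows), 1 to the E-box CAGGTG (17.2%) and 1 to the RBPJ core (21.6%). At Satb1, the window before start 1 held only the ETS purine box (23.3% of all windows). The window before start 2 was 80.8% G and C, against a median of 52.4% over all windows, with 3 GC box matches, of which the first 2 share a base. Both E-boxes (13.0% of all windows for CAGCTG) stood before start 3. The STAT6 motif (5.85% of all windows) and the EBF1 motif (0.779%) were not in these 5 windows. The window before Fcer2a start 2, not printed because it overlapped no peak, held a STAT6 match from 168 to 159 bases before that start. A match describes letters and not a bound site.

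Library totals were 31696941 to 38798802 counts in WT CB and 38716281 to 51011923 in HET CB. In CC they were 3494356 to 3750936 in WT and 5310327 to 7474760 in HET, so CC libraries held far fewer counts. HET totals ran higher than WT totals, without overlap in CC, so depth differed along with genotype. Accessibility is given in CPM, counts scaled to a common library total, after TMM scaling. CB and CC separated along the leading principal component (66.3% of variance). HET CC replicates 2 and 4 lay nearest to CB on it (88.6 and 76.2, against 137 to 178 in the other CC libraries), and WT CC replicate 2 stood apart on the second component. In HET against WT in CC, 1694 peaks were called with all libraries and 1 with HET CC replicates 2 and 4 left out, so results on that comparison are given both ways. Scaling by total counts turned the split of those calls from 889 higher and 805 lower to 1168 and 490. Over the 9 peaks of Smarca4 itself WT CB libraries held 183 to 196 CPM and HET CB libraries 175 to 180.2, with 153 to 185 for WT CC and 139.9 to 165 for HET CC; since the deleted exons are not named, this does not check the genotype. All 8 germinal center B cell markers were accessible in every group, with summed levels of 1480.3 to 1538 CPM in CB and 791 to 1174 CPM in CC. The 10 measured of 12 T cell markers (all but Cd28 and Lck) had sums of 141 to 149.8 CPM (WT CB) and 120.3 to 128 CPM (HET CB), against 355 to 451 (WT CC) and 279 to 370.3 (HET CC). In these bulk libraries, fewer cells of a type and less signal per cell cannot be told apart.

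Summed over its peaks, the Satb1 locus was more open and the Cr2 locus slightly less open in CC than in CB of both genotypes, while the Fcer2a locus was called more open in HET. Fcer2a measured 47.3, 51.4, 50.8 and 48.1 CPM in the WT CB libraries, 41.2, 41.6, 40.3 and 39.2 in HET CB, 57.4, 49.4, 52.3 and 61.0 in WT CC, and 54.3, 50.2, 50.8 and 53.4 in HET CC. All 4 HET CB libraries lay below every other library. Cr2 measured 161, 183, 163 and 177 CPM in WT CB, 177, 167, 171 and 172 in HET CB, 149, 156, 147 and 157 in WT CC, and 171, 157, 147 and 149.6 in HET CC. The Cr2 groups lay close together, and HET CC replicate 1 reached into the CB range. Satb1 measured 175, 206, 186 and 183 CPM in WT CB, 179, 181, 173 and 185 in HET CB, 265, 292, 277 and 288 in WT CC, and 242, 219.5, 241 and 194 in HET CC. Every WT CC library stood above every HET CC library, and the CB groups overlapped.

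**Figure D1:**
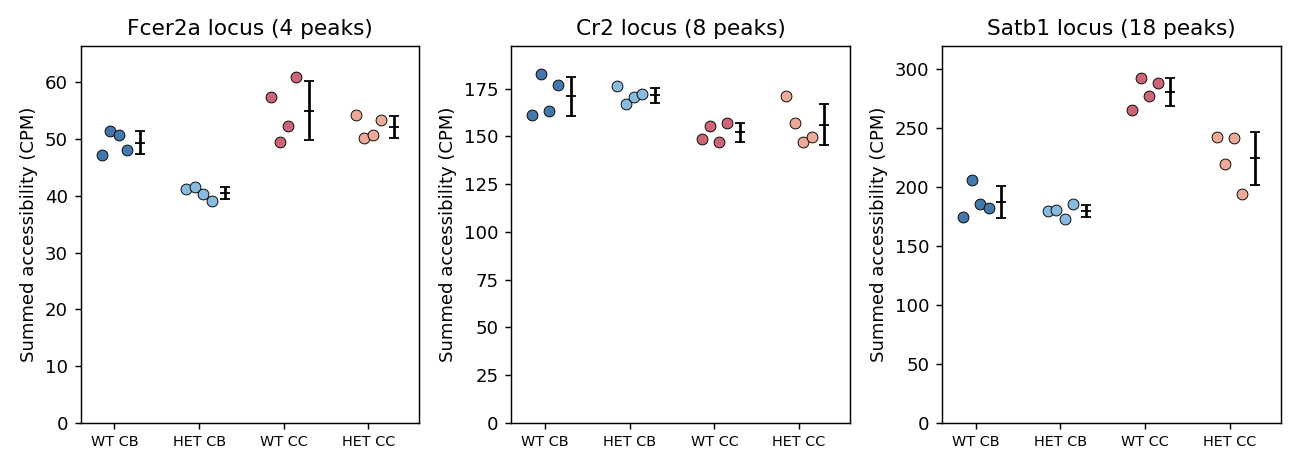
Accessibility summed over the peaks of the Fcer2a, Cr2 and Satb1 loci (CPM, linear axis from 0) in each of 16 libraries; points are libraries, and the bar is the mean with its SD over 4. The HET CB points of Fcer2a lie below all others, and the WT CC points of Satb1 lie above all others.

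From CB to CC in WT, 2 of the 3 measured loci passed the test (edgeR quasi-likelihood with Benjamini-Hochberg adjustment over 15075 genes). Satb1 rose by 0.58 on the log2 scale (SE 0.056, adjusted p = 1.34e-11) and Cr2 fell by 0.17 (SE 0.053, adjusted p = 0.00627). Fcer2a, at 0.16 (SE 0.074), did not pass with an adjusted p = 0.0603. Among all genes, 31.6% were called higher and 31.7% lower in this comparison. In HET all 3 loci passed, with Satb1 higher by 0.32 (SE 0.053, adjusted p = 3.00e-06), Fcer2a higher by 0.36 (SE 0.067, adjusted p = 1.24e-05) and Cr2 lower at -0.13 (SE 0.049, adjusted p = 0.0166). The shares of all genes called there were 31.1% higher and 31.7% lower. Called changes at these loci are thus common among genes in both comparisons.

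Fcer2a passed in WT with total counts, the DESeq2 test or limma-voom (0.16 to 0.22, adjusted p = 0.024 to 0.0322) and without WT CB replicate 2, WT CC replicate 2 or WT CC replicate 3 (0.18 to 0.20, adjusted p = 0.0237 to 0.0481). The Cr2 call in WT was lost when all libraries were thinned to the smallest (-0.13, adjusted p = 0.09). That in HET was lost with total counts, limma-voom or thinning (adjusted p = 0.0644 to 0.0721), without HET CB replicate 1, HET CC replicate 3 or HET CC replicate 4 (adjusted p = 0.051 to 0.0677), and without both HET CC replicates 2 and 4 (adjusted p = 0.135). Satb1 remained called in both genotypes under every alternative run.

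Peak by peak, 17 of the 30 member peaks rose and 4 fell from CB to CC in WT, where 30.2% of all peaks were called higher and 27.7% lower. In HET 13 rose and 1 fell, against 30.8% and 28.1% of all peaks. The rises were mostly those of Satb1, with 16 of its 18 peaks in WT and 11 in HET, whereas 1 Fcer2a peak in WT and 2 in HET rose and no Cr2 peak did. All 4 falls in WT were at Fcer2a (1) and Cr2 (3). The median log2 fold change was 0.56 in WT over the 30 peaks and -0.01 over all peaks.

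**Figure D2:**
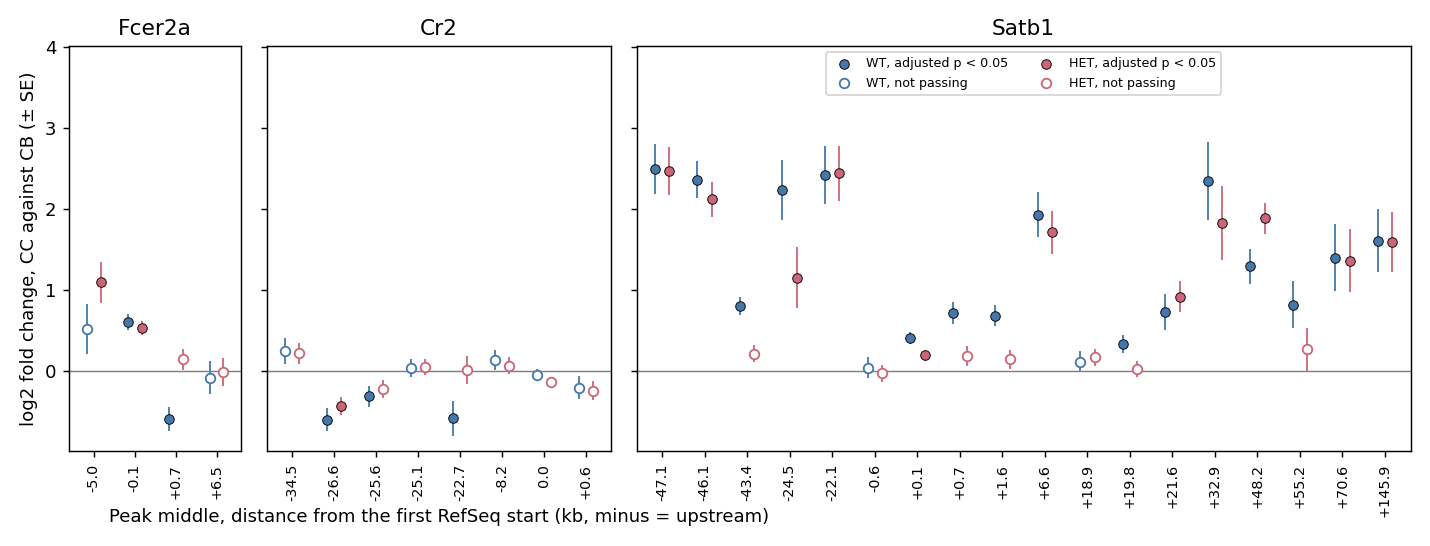
Log2 fold change of CC against CB (± SE) for each of the 30 peaks, ordered by distance of the peak middle from the first RefSeq start (kb, negative upstream); WT is blue, HET is red, and filled points passed the test. Satb1 points lie near or above 0 in both genotypes, and Cr2 points lie on both sides of it.

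At Fcer2a, the peak over the first start (chr8:3693994-3694494, its middle 0.1 kb upstream) opened from CB to CC while the peak 0.7 kb inside the gene (chr8:3693239-3693739) closed in WT. The start peak measured 21.2, 24.6, 23.1 and 22.0 CPM in WT CB, 19.6, 19.97, 18.6 and 18.6 in HET CB, 32.0, 29.7, 35.5 and 41.0 in WT CC, and 30.4, 24.9, 28.5 and 27.8 in HET CC. No CC library fell into the CB range of its genotype. Its log2 fold change from CB to CC was 0.61 (SE 0.099, adjusted p = 4.65e-07) in WT and 0.53 (SE 0.090, adjusted p = 1.07e-06) in HET. The peak 0.7 kb inside the gene measured 14.3, 14.995, 16.4 and 15.4 CPM in WT CB, 11.3, 11.5, 12.6 and 10.9 in HET CB, 12.8, 10.0, 6.76 and 10.9 in WT CC, and 12.2, 14.5, 10.2 and 13.7 in HET CC. WT CB was the high group here, above all 4 WT CC and all 4 HET CB libraries. It fell by 0.59 from CB to CC in WT (SE 0.15, adjusted p = 0.000785), a call lost under limma-voom with cyclic loess scaling (-0.29, adjusted p = 0.157). In HET the same peak gave 0.14 (SE 0.12, adjusted p = 0.323), a difference that limma-voom called (0.40, adjusted p = 0.0121) and that turned to -0.05 without HET CC replicates 2 and 4.

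The start peak therefore took a larger part of the counts at the Fcer2a locus in CC. It held 49.5% ± 1.41 (SD, n = 4) of them in WT CB and 64.9% ± 6.43 in WT CC, with no overlap between libraries, and 50.6% ± 0.905 and 56.0% ± 2.94 in HET, again with no overlap. The peak 0.7 kb inside held 33.3% ± 1.63 and 19.0% ± 4.07 in WT, and 30.5% ± 1.94 and 25.4% ± 4.19 in HET. These shares are given as a description. Both remaining Fcer2a peaks were weak. The one 5.0 kb upstream (chr8:3698965-3699465) had group means of 1.83 to 3.92 CPM and rose in HET, with a log2 fold change of 1.10 (SE 0.25, adjusted p = 0.000184) against 0.52 (adjusted p = 0.142) in WT. The one 6.5 kb inside the gene had group means of 5.34 to 5.67 CPM and was not called in any comparison. RefSeq starts 2 and 3 of Fcer2a overlapped no peak.

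At Cr2 the start peak did not pass the edgeR test in either genotype, and the 3 falls in WT lay 22.7 to 26.6 kb upstream. These falls depended on the setting: under limma-voom none of the 3 passed and the peaks 8.2 and 34.5 kb upstream were called higher (0.34 and 0.57, adjusted p = 0.0493 and 0.00559). After thinning, and without WT CC replicate 2, 1 of the 3 passed, that at 26.6 kb. In HET the 26.6 kb fall did not pass under limma-voom (-0.20, adjusted p = 0.214) or after thinning (-0.34, adjusted p = 0.107). The start peak (chr1:195176483-195176983) was the strongest, with 46.2, 54.5, 47.2 and 52.1 CPM in WT CB, 50.8, 51.0, 52.8 and 53.1 in HET CB, 49.5, 47.7, 52.7 and 43.2 in WT CC, and 50.9, 45.6, 46.4 and 45.9 in HET CC. Its WT groups overlapped, with a log2 fold change of -0.05 (SE 0.077, adjusted p = 0.601), and in HET it gave -0.14 (SE 0.068, adjusted p = 0.0731). Under limma-voom it was called lower in both (-0.26 in each), and in HET also under the DESeq2 alternatives, with only the compared groups in the fit and without HET CC replicate 1 (-0.18, adjusted p = 0.0394). The direction in WT turned when all libraries were thinned to the smallest (0.04) and without WT CC replicate 4 (0.00). The peak 26.6 kb upstream (chr1:195203115-195203615) measured 18.1, 18.6, 17.9 and 20.5 CPM in WT CB, 20.5, 18.2, 18.6 and 18.8 in HET CB, 11.1, 16.5, 9.02 and 13.1 in WT CC, and 12.6, 17.9, 11.9 and 13.2 in HET CC. Replicate 2 was the highest CC library of both genotypes, still below all CB libraries of its genotype. The peak fell by 0.60 in WT (SE 0.14, adjusted p = 0.000288) and by 0.43 in HET (SE 0.12, adjusted p = 0.00122). Both calls were lost under limma-voom (-0.34 and -0.20), and that in HET after thinning (-0.34, adjusted p = 0.107).

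Of the other members of this upstream group, the peak 25.6 kb away fell in WT (-0.31, adjusted p = 0.0393; HET -0.22, adjusted p = 0.0727), and so did the peak 22.7 kb away (-0.58, adjusted p = 0.0192; HET 0.01, adjusted p = 0.952). The peak 25.1 kb upstream, between them, had group means of 22.1 to 23.5 CPM and fold changes of 0.04 and 0.05, with adjusted p-values of 0.783 and 0.689. Peaks 0.6 kb inside the gene and 8.2 and 34.5 kb upstream were also not called by edgeR, and limma-voom called the last of them higher in HET too (0.47, adjusted p = 0.00636). Restricted to peaks within 10 kb of the gene, the Cr2 locus gave -0.09 in WT (adjusted p = 0.206) and -0.13 in HET (adjusted p = 0.0453), so it stayed called in HET without the distal peaks. Of 7 measured markers of follicular dendritic and stromal cells, which can carry CD21, 5 were called higher and 1 lower in CC of either genotype. Their sums were 88.2 to 91.6 CPM in WT CB, 127 to 139 in WT CC, 86.2 to 90.2 in HET CB and 105 to 143 in HET CC. The defining markers Cxcl13 and Fdcsp, and Pdpn, had no peak assigned. Among all genes, 31.1% to 31.6% were called higher and 31.7% lower in these comparisons. Of 6 marginal zone B cell markers, 4 fell and 1 rose in each genotype. The part of these cells in the Cr2 values was not tested.

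At Satb1, 16 of 18 peaks rose from CB to CC in WT, and the rises were larger at peaks that were weak in CB. The WT CB level that splits the peaks is also the base of the WT fold change, which by itself tilts weak peaks towards larger rises. The fold changes in HET do not share those libraries. How peaks entered the table is not given, however. A peak weak in CB may be listed only because it was open in CC, which would tilt both genotypes towards rises. The 11 peaks below 5 CPM in WT CB all rose in WT and 10 of them rose in HET, with median log2 fold changes of 1.93 and 1.71. Their summed accessibility went from 19.0 ± 2.25 to 59.1 ± 8.14 CPM in WT and from 15.4 ± 1.03 to 45.7 ± 7.45 in HET (SD, n = 4). Of the 7 peaks at or above 5 CPM, 5 rose in WT and 1 in HET, with medians of 0.41 and 0.17 and sums of 155 ± 10.3 to 212 ± 10.4 CPM in WT and 153 ± 5.05 to 169 ± 16.5 in HET. Of all peaks, 79.4% below 2 CPM in WT CB and 25.2% from 2 to 5 CPM were called higher in WT. From 5 to 10, from 10 to 20 and from 20 CPM up, the shares were 15.5%, 11.5% and 31.8%. In HET 30.8% of all peaks, at any level, were called higher. The 2 Satb1 peaks not called in WT lay 0.6 kb upstream and 18.9 kb inside the gene. The low peaks held only 3 to 45 counts per WT CC library, so single values are coarse.

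Over the whole table, weak peaks rose as well, but the change did not follow the level throughout. Of 12481 peaks below 2 CPM in WT CB, 79.4% rose in WT. Their median log2 fold change was 1.91, beside 2.24 for the 7 Satb1 peaks in that range (1.85 and 1.71 in HET). From 2 to 5 CPM the median of all peaks was 0.07, and that of the 5 member peaks there was 0.82. Between 10 and 20 CPM it was -0.35 for all peaks and 0.08 for 10 member peaks, and at 20 CPM or more -0.02 for all peaks and 0.34 for 5 member peaks. CC libraries held fewer counts than CB libraries throughout, and after thinning all libraries to the smallest, 10 of the 14 Satb1 peaks that could still be tested rose in WT and 7 in HET. Of all 75646 peaks tested after thinning, 25.3% were called higher in WT and 22.6% in HET.

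**Figure D3:**
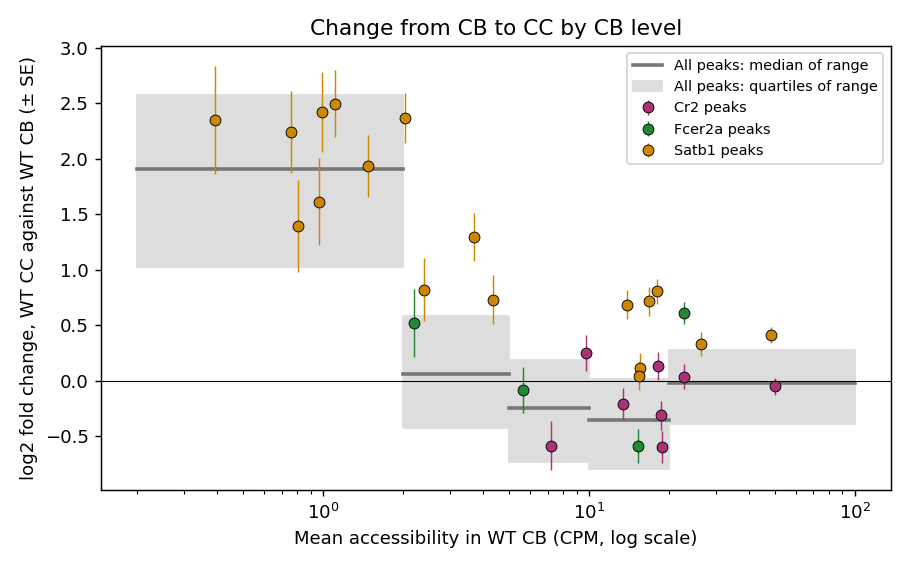
Log2 fold change of WT CC against WT CB (± SE) of the member peaks against their mean accessibility in WT CB (CPM, log axis); the grey line and box give the median and quartiles of all peaks in each of 5 ranges of level. The 7 Satb1 peaks below 2 CPM lie inside the box of all peaks at that level, and the 11 Satb1 peaks above 2 CPM lie above theirs.

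The largest rise was at the peak 47.1 kb upstream of Satb1 (chr17:51880126-51880626). It measured 0.819, 1.35, 1.14 and 1.14 CPM in WT CB, 1.02, 0.758, 0.684 and 0.681 in HET CB, 6.11, 6.18, 8.46 and 4.38 in WT CC, and 5.50, 3.83, 6.04 and 2.33 in HET CC. Every CC library lay above every CB library. The rise was 2.50 in WT (SE 0.30, adjusted p = 3.86e-10) and 2.47 in HET (adjusted p = 2.2e-10). Its neighbors 46.1, 24.5 and 22.1 kb upstream rose by 2.36, 2.24 and 2.42 in WT. The strongest peak, over the first start (chr17:51832974-51833474), measured 45.5, 53.1, 47.0 and 48.6 CPM in WT CB, 46.4, 48.2, 46.1 and 48.2 in HET CB, 63.1, 65.1, 59.5 and 70.9 in WT CC, and 61.7, 53.4, 51.5 and 49.5 in HET CC. It rose by 0.41 in WT (SE 0.074, adjusted p = 2.88e-06) and by 0.19 in HET (SE 0.067, adjusted p = 0.0116). Neither call held under limma-voom (0.17 and 0.04), and that in HET was lost without HET CC replicate 1 (0.13, adjusted p = 0.129). The third start lay in a peak with 1.48 CPM on average in WT CB and 5.66 in WT CC, a rise of 1.93 (SE 0.28, adjusted p = 3.69e-08). Starts 4 and 5 lay outside every peak.

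Satb1 is also highly active in T cells, and 9 of the 10 measured T cell markers rose from CB to CC in each genotype (Cd4 fell in WT and was not called in HET). Myeloid markers rose in 7 of 7 cases in WT and in 6 of 7 in HET, and NK cell markers in 4 and 5 of 6. Among all genes, 31.6% were called higher and 31.7% lower in WT, and 31.1% and 31.7% in HET. Germinal center B cell markers fell in 7 of 8 cases in each genotype (1 rose in HET), and B cell markers in 6 of 8. The part of these cell types in the rise of Satb1 was not tested.

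**Figure D4:**
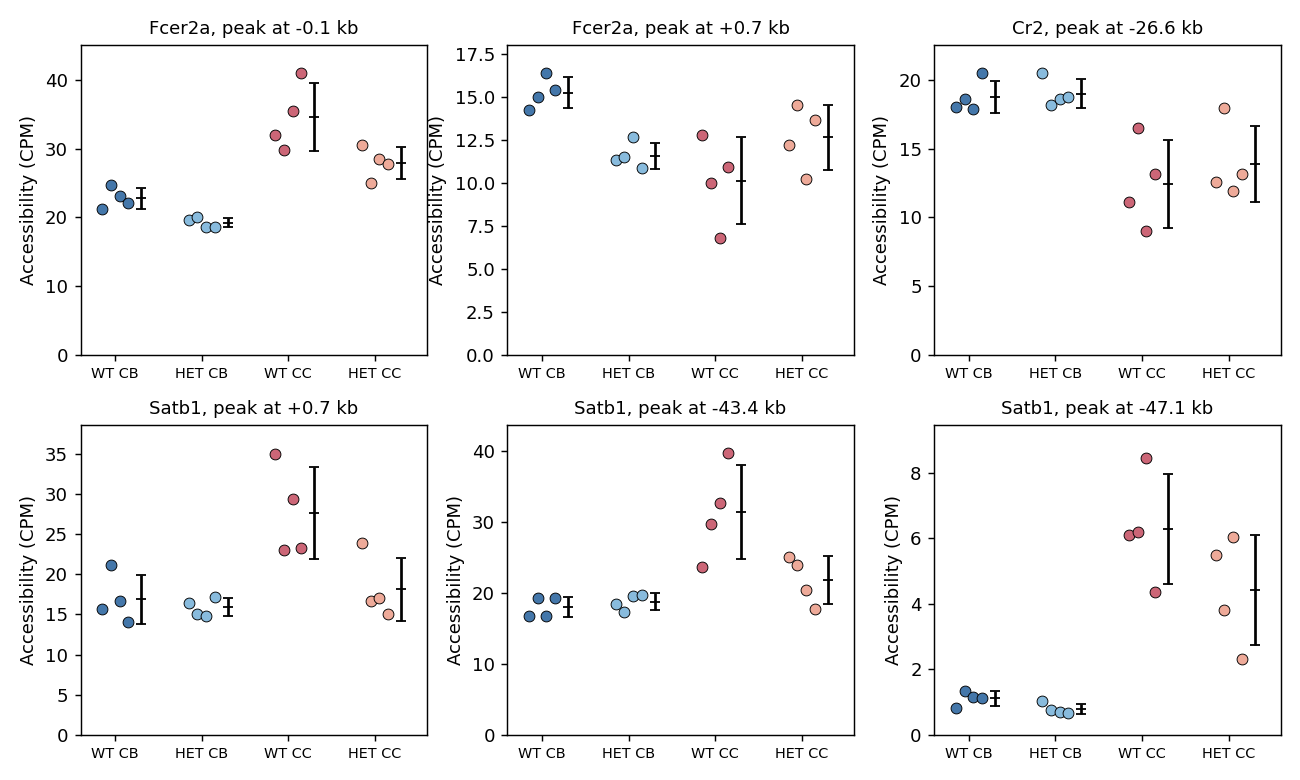
Accessibility (CPM, linear axes from 0) of 6 named peaks in each library; points are libraries, and the bar is the mean with its SD over 4 per group. The WT CC mean is highest at both Satb1 peaks of intermediate level and at the Fcer2a start peak, and the WT CB mean is highest at the Fcer2a peak 0.7 kb inside the gene.

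The genotype comparison asked what loss of 1 Smarca4 allele changed. In CB, 0 of the 30 peaks passed the edgeR test (0.00243% of all peaks were called higher and 0.127% lower), and 3 had an unadjusted p below 0.05, as did 7.90% of all peaks. The DESeq2 and limma-voom alternatives each called 2, where they called 0.787% and 1.37% of all peaks. Summed over its peaks, however, Fcer2a was lower in HET CB by a log2 fold change of -0.28 (SE 0.056, adjusted p = 0.00804; lower in 4 of 4 libraries), where 0.0265% of genes were called higher and 0.524% lower. Cr2 gave 0.01 (SE 0.044, adjusted p = 0.982) and Satb1 -0.06 (SE 0.049, adjusted p = 0.747). Both strong Fcer2a peaks had negative estimates, -0.24 (SE 0.073, adjusted p = 0.195) at the start and -0.40 (SE 0.093, adjusted p = 0.0528) at 0.7 kb inside, and at each of them the HET CB libraries lay below all WT CB libraries. The start peak passed under 3 of the other settings (DESeq2, limma-voom and a fit of the compared groups alone). The peak inside the gene passed under 6 of them with all libraries, from an adjusted p of 0.0014 with DESeq2 to 0.0491 with total counts.

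The locus call at Fcer2a was lost without HET CB replicate 4 (-0.27, adjusted p = 0.0707) and after thinning (-0.27, adjusted p = 0.876), where no gene of the whole table was called. Some other signals moved with it. The summed T cell markers were lower in every HET CB than in every WT CB library, as were myeloid markers (181 to 185 against 198 to 202 CPM) and B cell markers (1747 to 1767 against 1812 to 1916 CPM), although no single T, myeloid or B cell marker was called. Of 6 NK cell markers, 1 was called lower, Klrk1 (-0.70, adjusted p = 0.0346). The summed NK cell markers overlapped between genotypes, at 182 to 191 CPM in HET CB and 181 to 193 in WT CB. Germinal center markers overlapped too, at 1480 to 1510 CPM in HET CB and 1490 to 1538 in WT CB. So did follicular dendritic and stromal markers (86.2 to 90.2 against 88.2 to 91.6 CPM). Marginal zone markers overlapped as well (1031 to 1056 against 1016 to 1062 CPM). The part of these signals in the Fcer2a difference was not tested.

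In CC, 2 of the 30 peaks fell in HET, both at Satb1 (1.08% of all peaks were called higher and 0.979% lower). As a locus, Satb1 fell by 0.33 (SE 0.059, adjusted p = 0.00123), with all HET CC libraries below all WT CC libraries; among all genes 3.24% were called higher and 3.42% lower. Fcer2a gave -0.08 (SE 0.082, adjusted p = 0.616) and Cr2 0.04 (SE 0.058, adjusted p = 0.743). One of the called peaks covered the second start, 0.7 kb inside the gene (chr17:51832351-51832851), whose GC-rich promoter is printed above. It measured 15.6, 21.1, 16.6 and 14.1 CPM in WT CB, 16.4, 15.1, 14.8 and 17.2 in HET CB, 35.0, 23.0, 29.3 and 23.3 in WT CC, and 23.9, 16.6, 16.99 and 15.1 in HET CC. HET CC replicate 1 overlapped the WT CC range, and the other HET CC libraries lay in the range of CB. The difference between genotypes in CC was -0.62 (SE 0.15, adjusted p = 0.021). The rise from CB to CC was 0.72 in WT (SE 0.13, adjusted p = 5.40e-06) and 0.18 in HET (SE 0.12, adjusted p = 0.205).

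The other called peak lay 43.4 kb upstream (chr17:51876395-51876895), with 16.8, 19.3, 16.7 and 19.3 CPM in WT CB, 18.5, 17.3, 19.6 and 19.8 in HET CB, 23.6, 29.7, 32.7 and 39.7 in WT CC, and 25.1, 23.9, 20.4 and 17.7 in HET CC. WT CC replicate 1, the lowest of its group, overlapped the HET CC libraries. The difference in CC was -0.53 (SE 0.13, adjusted p = 0.0212), and the rise from CB to CC was 0.81 in WT (adjusted p = 2.67e-08) and 0.22 in HET (SE 0.11, adjusted p = 0.0766). Of the 18 Satb1 peaks, 15 had a negative fold change in HET CC, with a median of -0.49 beside -0.00 over all peaks. Without HET CC replicates 2 and 4 the median was -0.34, beside -0.01 over all peaks. The start peak gave -0.26 (SE 0.081, adjusted p = 0.0722) and the peak 1.6 kb inside -0.51 (SE 0.15, adjusted p = 0.0531).

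Without HET CC replicates 2 and 4 the Satb1 calls were lost: the locus gave -0.21 (adjusted p = 0.117), the peak at the second start -0.43 (adjusted p = 0.352) and the peak 43.4 kb upstream -0.46 (adjusted p = 0.234). Without replicate 4 alone neither peak was called, nor was either under limma-voom (-0.64 and -0.52) or in a fit of the CC libraries alone (-0.61 and -0.52). Leaving out WT CC replicate 1 or 3 or HET CC replicate 2 also ended the call at the second start, and leaving out WT CC replicate 4 that at 43.4 kb. The 2 HET CC libraries with the lowest Satb1 level, replicates 4 and 2, also had the lowest summed T cell markers of their group (279 and 297 CPM, against 353 and 370.3 in replicates 1 and 3) and the highest germinal center markers (1174 and 1112 against 945 and 968 CPM). At the peak 43.4 kb upstream, replicates 3 and 4 were the lowest of HET CC (20.4 and 17.7 CPM) and replicate 2 measured 23.9 CPM. Between genotypes in CC, 4 of 10 T cell markers fell in HET and 5 of 8 germinal center markers rose, where 3.42% of all genes were called lower and 3.24% higher. Without replicates 2 and 4 these counts were 0 and 1, where 0.0398% of all genes were called in either direction. The part of these differences in the Satb1 result was not tested.

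**Figure D5:**
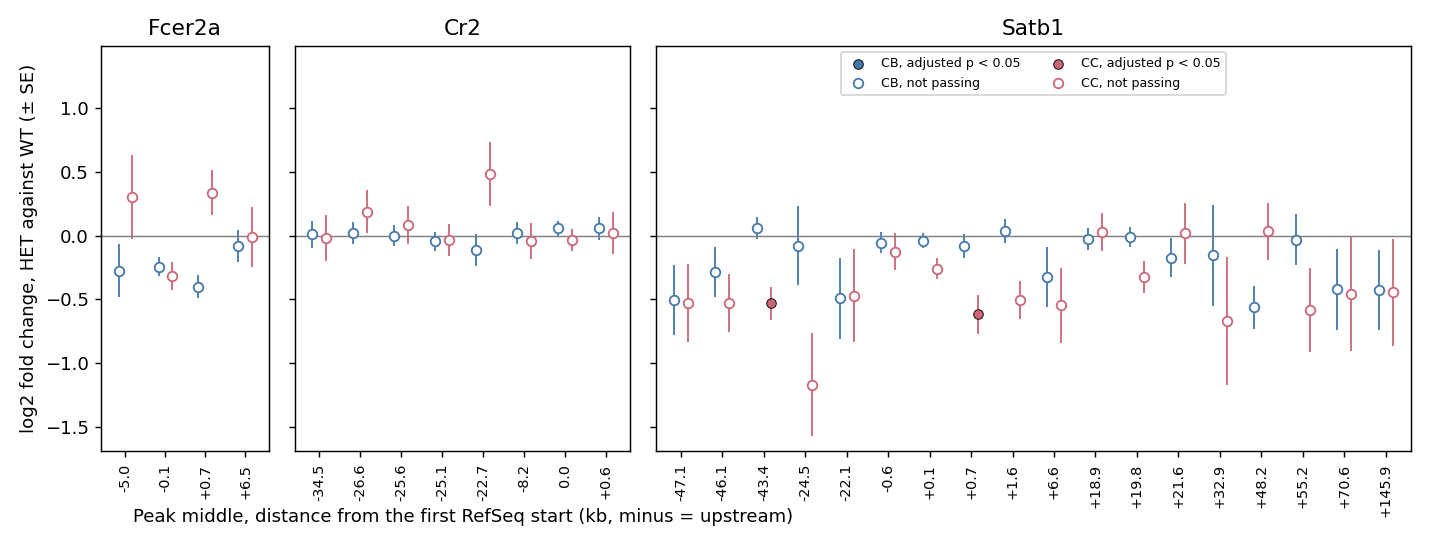
Log2 fold change of HET against WT (± SE) for each of the 30 peaks in CB (blue) and in CC (red), ordered by distance from the first RefSeq start (kb, negative upstream); filled points passed the test. The 2 filled points are Satb1 peaks in CC, and most red Satb1 points lie below 0.

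Whether the HET effect differed between CC and CB was tested by the interaction. It passed at 0 of 30 peaks (0.159% of all peaks were called) and at none of the 3 loci (0.411% of all genes), although 9 peaks had an unadjusted p below 0.05 (11.4% of all peaks did). DESeq2 called 2 of the 30 and 1.65% of all peaks, and limma-voom called 0. The estimates were -0.27 (SE 0.077, adjusted p = 0.106) for Satb1, 0.20 (SE 0.099, adjusted p = 0.374) for Fcer2a and 0.03 (SE 0.073, adjusted p = 0.899) for Cr2. Satb1 passed when HET CC replicate 1 or 3 was left out (-0.31 and -0.30, adjusted p = 0.039 and 0.0402). The peak 0.7 kb inside Fcer2a had the largest positive estimate of the 30, 0.73 (SE 0.20, adjusted p = 0.0896), since it was lower in HET in CB and higher, uncalled, in HET in CC (0.33, SE 0.18, adjusted p = 0.322). DESeq2 called it (adjusted p = 0.0108), as did leaving out HET CC replicate 3 (0.81, adjusted p = 0.0381), while without HET CC replicates 2 and 4 it gave 0.54 (adjusted p = 0.432). At Satb1 the peak 43.4 kb upstream gave -0.59 (SE 0.15, adjusted p = 0.0807; called by DESeq2 and without WT CC or HET CC replicate 1) and that at the second start -0.53 (adjusted p = 0.193). Fold changes that share a control group are not independent.

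The member peak farthest from its gene lay 48814 bp past the Satb1 span, and the nearest peak beyond the limit lay 55919 bp from the Cr2 span. That Cr2 peak, 56.1 kb upstream of the start, had -0.32 in WT (adjusted p = 0.0898) and -0.33 in HET (adjusted p = 0.029). Beyond Satb1 the first peak, 58.5 kb upstream and low in CB (0.759 CPM), rose by 2.02 in WT (adjusted p = 1.1e-05). Of the 6 unassigned peaks 58.5 to 71.4 kb upstream of Satb1, the 4 nearest rose by 1.64 to 2.33 in WT, and the strongest, at 70.9 kb with 41.1 CPM in WT CB, gave 0.18 (adjusted p = 0.0808). Between Cr2 and the next gene, Cr1l, which encodes the complement regulator Crry, 2 peaks assigned to Cr1l rose in WT by 0.57 and 0.39. Upstream of Fcer2a, the first peak assigned to Clec4g, a C-type lectin gene, fell in WT (-0.73, adjusted p = 0.00424). The next, 11.7 kb upstream, was not called (-0.34, adjusted p = 0.27), and those 16.1 to 24.5 kb upstream rose by 0.30 to 0.51 (adjusted p = 0.00287 to 0.0478). Downstream of Fcer2a, the peaks assigned to Retn and Mcemp1 rose in WT by 1.08 to 1.95, and the other neighbors gave -0.18 to 0.89.

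Across the 16 libraries, the genes whose summed accessibility followed each member most closely, among 7536 genes above the median level, were Gpm6b (Pearson r = 0.904), Prkg1 (0.902) and Ubash3b (0.890) for Fcer2a. For Cr2 they were Lrba (0.931), Ankib1 (0.912) and Apaf1 (0.904), and for Satb1 Mrvi1 (0.973), Il10rb (0.969) and Smc6 (0.966). The libraries share their group structure and depth, so these values are descriptive.

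Other genes of the naive follicular program did not move as one group. Of 19 measured genes of 20 on the list, the 3 members included, 7 rose and 6 fell from CB to CC in WT. In HET 8 rose and 7 fell. Among all genes, 31.6% were called higher and 31.7% lower in WT, and 31.1% and 31.7% in HET, so calls in either direction are common. The list's median log2 fold change was 0.05 in WT and 0.08 in HET, beside -0.01 and -0.00 over all genes. Among the rises with the smallest p-values in WT were those of Klf2, a transcription factor of quiescent lymphocytes (0.84, adjusted p = 3.06e-14), and of S1pr1, the receptor that guides cells out of lymphoid tissue (0.44, adjusted p = 5.84e-11), together with Satb1. In HET against WT in CB, Fcer2a was the 1 gene of the list that passed (0.524% of all genes were called lower). In CC, 6 fell in HET, Satb1, Klf2 and S1pr1 among them, and 0 rose (3.42% and 3.24% of all genes). Without HET CC replicates 2 and 4 none of the 19 was called in CC (edgeR).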

How the data were processed

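Omni-ATAC libraries of 16 samples, 4 in each of 4 groups taken from the labels, were compared through a table of raw read counts over 82188 peaks of 501 bp, deposited by the authors. Per the submitters' processing notes, FastQC, BWA, deepTools, R 4.2.1 and mm10 were used; peak calling, read counting and any shift of read ends are not given in the sources used here, and peak width or counting rules could move weak peaks most.

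Each peak went to the nearest protein-coding RefSeq span (GRCm38.p6) within 50 kb of its middle, the shorter span where spans overlapped; 74773 peaks (91.0%) were assigned. Counts per peak, and summed per gene, were tested with edgeR 4.0.16 (R 4.3.3): TMM, filterByExpr (which removed 0 peaks), a robust quasi-likelihood fit of 4 groups over all 16 libraries, with Benjamini-Hochberg adjustment across the 82188 peaks or the 15075 genes, called below 0.05. The test was checked on simulated data. CPM uses TMM-adjusted totals, and locus CPM uses counts assigned to genes.

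Values per library are printed for start peaks, the strongest peak of each gene, peaks called between genotypes and the called peak with the largest rise and fall; list genes are those with the smallest p, of which 1 is not reported here. Alternatives were DESeq2 1.42.0 size factors and test, total counts, limma 3.58.1 voom with cyclic loess, other filters, the compared groups alone, a replicate block, thinning, leaving out each library and a limit of 10 kb. Leaving out HET CC replicates 2 and 4 together was chosen after seeing the data. Members and lists were chosen with earlier results of these data known. Because libraries were amplified by PCR, reads are not independent molecules, and precision from depth covers counting error only.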

Additional observations from a re-analysis of the deposited data

Results flagged for a closer look

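The Cr2 start peak in HET CC replicate 1, at 50.9 CPM, stood apart from the other libraries of its group, which lay between 45.6 and 46.4 CPM. Its gap to the nearest of them was 0.849 of the group's range, above Dixon's 95% critical value for 4 samples. It was the 1 such case among 44 groups examined (11 loci and peaks in 4 groups), where chance gives about 1 in 20. Without this library the Cr2 start peak passed as lower in CC than in CB of HET (-0.18, adjusted p = 0.0394, edgeR).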

How the results depend on the processing

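The counts of called member peaks moved as follows. For HET against WT in CB (0), DESeq2 size factors, total counts and a mean of 20 counts gave 1 each, the DESeq2 test and voom 2 each, the compared groups alone 3, and HET CC replicates 2 and 4 left out 1; leaving out single libraries gave 0 to 1. For HET against WT in CC (2), DESeq2 gave 6, the 10 kb limit 1, and voom, the compared groups alone and HET CC 2 and 4 left out 0; single libraries gave 0 to 4. From CB to CC in WT (21), thinning gave 13 and 10 kb 12 (single libraries 18 to 22). In HET (14), the mean of 20 counts and 10 kb gave 8 each and thinning 9. The interaction (0) gave 2 with DESeq2 and 0 to 1 without single libraries. The 10 kb limit and the mean of 20 counts leave fewer peaks to call; for the rest the cause was not tested.

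Of called loci, HET against WT in CB gave 0 after thinning and 0 to 1 without single libraries (main 1), CC gave 0 without HET CC 2 and 4 (main 1), and CC against CB in WT gave 1 after thinning and 1 within 10 kb (main 2). The interaction gave 0 to 1 without single libraries (main 0).

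Uncalled estimates near 0 changed sign. The Cr2 locus gave -0.01 (HET against WT in CC) and -0.04 (interaction) within 10 kb and -0.01 (interaction) after thinning; without single libraries it ranged from -0.02 to 0.04 in CB, from -0.01 to 0.06 in CC and from -0.01 to 0.06 in the interaction. The Cr2 start peak in HET against WT in CC gave 0.00 with total counts, 0.04 with voom, and 0.01 with a mean of 20 counts and without HET CC 2 and 4 (single libraries -0.08 to 0.01); from CB to CC in WT it gave 0.04 thinned (-0.09 to 0.00). The Cr2 peak 26.6 kb upstream gave -0.10 thinned in HET against WT in CB (-0.02 to 0.06), and without HET CC 2 and 4 -0.02 in CC and -0.05 in the interaction. The Fcer2a start peak interaction gave 0.01 thinned and 0.00 without HET CC 2 and 4 (-0.15 to 0.01), and the Fcer2a peak 0.7 kb inside -0.05 from CB to CC in HET without them. In HET against WT in CB, Satb1 gave -0.16 thinned at 43.4 kb, -0.16 to 0.04 without single libraries at the second start and -0.07 to 0.01 at the first. The Satb1 interaction at 47.1 kb gave 0.01 with total counts, 0.02 with a mean of 20 counts, 0.37 without HET CC 2 and 4 and -0.21 to 0.18 without single libraries.

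The replicate block changed no count of member calls by over 1.5 times (20 peaks from CB to CC in WT, 14 in HET, 2 in HET against WT in CC). Same-numbered CB and CC deviations correlated at 0.0724 to 0.111 in WT and 0.0375 to 0.0661 in HET. Differently numbered ones gave -0.112 to 0.0811 in WT and -0.0576 to 0.0572 in HET, so this does not settle whether libraries are paired. CB and CC libraries with both numbers odd or both even correlated positively, and the others negatively, for a reason that was not tested. Between WT and HET CB, same numbers gave -0.246 to -0.169 and different numbers -0.234 to 0.244. Over all peaks the block left 45 calls in CB and 1287 in CC, against 106 and 1694; DESeq2 gave 647 and 4650, voom 1127 and 76, and thinning 0 and 836. CC depth limits the weakest Satb1 peaks, of which 4 could not be tested after thinning.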

Other observations

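Complement genes, the family of Cr2 and Cd55, moved in both directions. Of 13 measured genes of 15 (all but Cd55 and Cd55b), 5 rose and 6 fell from CB to CC in WT. In HET 6 rose and 5 fell. Among all genes, 31.6% were called higher and 31.7% lower in WT, and 31.1% and 31.7% in HET. Between genotypes, 0 of the 13 were called in CB or CC (edgeR). Vsig4, the complement receptor of tissue macrophages, had the largest rise, 2.98 in WT (SE 0.21) and 3.38 in HET (SE 0.20). Serping1, the C1 inhibitor, rose by 1.38 in WT, and Cd59b, a blocker of the membrane attack complex, fell by 1.03. Myeloid markers rose over the same comparison, and their part in the rise of Vsig4 was not tested.

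Of 15 Notch and marginal zone genes, 4 rose and 6 fell from CB to CC in WT (31.6% and 31.7% of all genes). In HET 4 rose and 5 fell (31.1% and 31.7% of all genes). Cd1d1, which presents lipids to NKT cells, rose by 1.24 in WT, and Lfng, a glycosyltransferase that modifies Notch, by 0.80. Hes5, a Notch target, fell by 0.63. In HET against WT in CC, 2 fell, Lfng (-0.21, adjusted p = 0.0148) and Maml2, a Notch coactivator (-0.13, adjusted p = 0.0412). Among all genes 3.42% were called lower there. Without HET CC replicates 2 and 4, 0 of the 15 were called.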
